A study of Mus musculus with 24 samples.

Results

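The circadian clock genes described here are 10 genes of the core molecular clock and its outputs: Per1, Per2, Per3, Cry1, Cry2, Clock, Nr1d1, Nr1d2, Dbp and Bhlhe40. They were taken by symbol from a deposited table of read counts with 56750 entries, and all 10 passed the filter on low counts that left 20354 genes for testing. RNA was sequenced in bulk from the medial prefrontal cortex of mice whose genotype label is 5xFAD throughout, a transgenic strain in which the neuronal Thy1 promoter drives mutant human APP. The 24 libraries formed 6 groups of 4 by title: untreated mice in the housing arm GH (GH_Con) or in social isolation (SI_Con), mice given the enriched environment, abbreviated EE, in either housing (GH_EE, SI_EE), and a WT arm in either housing (GH_WT, SI_WT). The series title also names resocialization, and the labels do not say which arm that was, what GH stands for, or what WT means where every genotype label reads 5xFAD. The age and sex of the mice and the time of day at which tissue was taken are not in the labels. Nor do they tell whether the libraries of a group are separate mice, and the p-values then reflect only how these samples vary, which may be technical.

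The mammalian clock is a transcriptional feedback loop. CLOCK pairs with BMAL1 (gene Arntl) and binds E-box elements in front of the Per and Cry genes, whose proteins return to the nucleus and repress that pair. Nr1d1 and Nr1d2 encode REV-ERB nuclear receptors, which repress Arntl in a side loop, Dbp encodes a PAR bZIP activator that acts through D-boxes, and Bhlhe40 (DEC1) competes for E-boxes as a repressor. In forebrain, Per1, Per2 and Bhlhe40 are also known to be induced by neuronal activity, and Per genes by glucocorticoids.

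Promoter windows are shown where they hold the elements through which this loop is known to act. RefSeq windows (GRCm38.p6) were found for 8 of the 10 members, not for Per2 and Bhlhe40, and the 250 bases before each start were searched on both strands for 6 motifs. Capitals mark the motif, and each stretch runs 5′ to 3′ on the gene's strand. The Per1 window before the start at 69100152 held none of the 6 motifs. Before the start at 69098949, Per1 held an E-box (CACGTG) at 166 bases and a D-box variant (TTATGCAA) at 24 bases, in the window chr11:69098753-69098948, plus strand.
Per1: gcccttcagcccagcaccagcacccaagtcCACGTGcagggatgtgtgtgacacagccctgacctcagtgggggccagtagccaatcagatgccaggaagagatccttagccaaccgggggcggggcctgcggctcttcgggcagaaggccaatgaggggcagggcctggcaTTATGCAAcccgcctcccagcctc
Cry1 held an E-box 60 bases and an E-prime box (CACGTT, here as its complement AACGTG) 79 bases before its start, in chr10:85185075-85185163, minus strand.
Cry1: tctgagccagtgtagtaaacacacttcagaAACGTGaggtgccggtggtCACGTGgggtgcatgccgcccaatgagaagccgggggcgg
Cry2 (chr2:92434196-92434265, minus strand, 166 bases before the start) and Nr1d1 (chr11:98775378-98775435, minus strand, 28 bases before the start) each held an E-prime box on the complementary strand.
Cry2: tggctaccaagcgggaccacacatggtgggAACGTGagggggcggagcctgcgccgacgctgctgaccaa
Nr1d1: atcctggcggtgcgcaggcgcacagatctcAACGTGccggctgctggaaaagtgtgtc
Per3 held a pair of D-boxes (TTATGTAA), 205 and 158 bases before its start, in chr4:151044784-151044900, minus strand.
Per3: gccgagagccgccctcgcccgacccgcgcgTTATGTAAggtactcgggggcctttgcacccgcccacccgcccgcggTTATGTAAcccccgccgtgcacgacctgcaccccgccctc
Of all 32851 promoter windows of that length, 6.02% held the E-box, 3.85% the E-prime box, 0.819% the D-box and 0.694% its variant. No member window held the ROR element core TAGGTCA (2.23% of all windows) or the cAMP response element TGACGTCA (1.55%), and Clock, Nr1d2 and Dbp held none of the 6 motifs. These matches describe the letters of the windows only.

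Total counts ran from 33683587 to 51274917 per library, and each member had at least 698 reads in every library. The human APP entry, 337 to 4685 CPM (counts scaled to the library total) over the 24 libraries, read 2199 to 4685 CPM in the 8 libraries of the WT arm and so did not follow the label WT. Pyramidal and frontal cortex markers (11 of 11 tested) averaged 6.83 to 7.44 log2 CPM in 23 libraries and 5.36 in SI_EE 1, where a list of cerebellar genes averaged 8.42 against at most 3.37 elsewhere. Markers of neighbouring regions also set other libraries apart: thalamus and habenula genes averaged 4.93 in GH_WT 4, 4.67 in GH_WT 2 and 4.04 in SI_EE 1 against at most 3.11 elsewhere, striatal genes 3.54 in GH_WT 1 and 3.30 in SI_EE 1 against at least 4.83, and choroid plexus genes 3.76 in SI_Con 4, 3.13 in SI_EE 3 and 3.01 in GH_WT 2 against at most 1.35. In bulk tissue, fewer cells of a type and less RNA per cell cannot be told apart. In 4 libraries (GH_Con 2, SI_Con 2, SI_Con 3 and SI_WT 4) longer genes read lower, with a rank correlation between gene length and the library's deviation from the mean level of -0.35 to -0.24 against -0.10 to 0.20 in the others. By sex-chromosome transcripts, 12 libraries read Xist and 12 read Y-linked genes, with 3 Xist libraries in GH_Con, 1 in SI_EE and 2 in each other group.

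Per kilobase of merged exon, Nr1d1 stood highest at 36.4 ± 6.48 CPM per kilobase (SD, n = 24 libraries), followed by Nr1d2 at 31.96 ± 3.98, Bhlhe40 at 31.4 ± 6.66, Cry2 at 25.4 ± 3.05 and Dbp at 24.2 ± 5.50. Per1 (15.5 ± 3.46), Per2 (10.01 ± 3.17), Cry1 (8.04 ± 1.70), Clock (7.76 ± 1.68) and Per3 (6.21 ± 0.838) made up the lower end of that order. Neighbours in that order differed by less than the larger of their SDs over libraries, except Dbp from Per1 and Per1 from Per2. The merged exons of Clock, the partner of BMAL1, span 13727 bases, so its low place in this order depends on counting all of them. Per2 varied most between libraries, 3.35-fold from lowest to highest, and the other 9 genes 1.6-fold to 2.45-fold. Dbp shares 539 exon bases (18.01% of its exons) with Sphk2 on the opposite strand, Nr1d1 shares 263 (8.55%) with Thra, Cry2 shares 295 (4.67%) with D930015M05Rik and Bhlhe40 shares 118 (2.51%) with 0610040F04Rik. Whether counting used strand is not given in the sources used here, so reads of those pairs may be mixed and the levels of these 4 genes are uncertain to that extent.

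Per1, a repressor of CLOCK and BMAL1 that also responds quickly to activity and glucocorticoids, lies on chromosome 11 at 69095217 to 69109960 (GRCm38, plus strand). It read 58.7, 66.3, 66.3 and 64.5 CPM in the 4 GH_Con libraries. It read 83.4, 60.3, 110.4 and 123 in SI_Con, 107, 93.4, 81.3 and 88.6 in GH_EE, and 78.9, 81.8, 80.5 and 63.4 in SI_EE. The WT arm gave 105, 109, 119 and 109 CPM in GH and 75.5, 104, 78.2 and 81.8 in isolation. All 4 GH_WT libraries and all 4 GH_EE libraries lay above every GH_Con library, and all 4 GH_WT libraries lay above every SI_WT library. SI_Con spread over the whole range, with SI_Con 2 within GH_Con.

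Per2, which closes the same loop, lies on chromosome 1 at 91415982 to 91459324 (minus strand). GH_Con held it between 36.8 and 43.1 CPM (36.8, 41.2, 38.2 and 43.1). GH_EE held 93.2, 52.4, 50.02 and 91.5, SI_Con 61.0, 27.9, 73.5 and 89.4, and SI_EE 60.4, 85.6, 72.0 and 57.4. The WT arm read 51.8, 40.9, 47.7 and 45.4 in GH and 56.8, 76.6, 63.6 and 49.8 in isolation. The GH_EE libraries were all above GH_Con, as they were for 4.50% of all genes, the GH_WT libraries overlapped it, and SI_Con 2 was the lowest of all 24. Per3, the third period gene (chromosome 4, 151003652 to 151044665, minus strand), differed little: its group means ran from 56.3 ± 4.69 CPM in GH_WT to 63.1 ± 11.1 in GH_EE (SD, n = 4), and SI_Con 3 was its highest library at 80.7.

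The cryptochromes are the partners of the PER proteins and the stronger repressors of the complex. Cry1 (chromosome 10, 85131700 to 85185064, minus strand) had group means from 22.6 ± 2.24 CPM in GH_Con to 31.9 ± 9.55 in SI_EE (SD, n = 4), where SI_EE 1 read 45.5 and the other 3 libraries averaged 27.4 ± 3.87. Cry2 (chromosome 2, 92403646 to 92434043, minus strand) was tight in GH_Con, at 143, 142, 151 and 145 CPM. The 4 GH_EE libraries (177, 159, 161 and 156) and the 4 GH_WT libraries (165, 172, 187 and 159) all lay above these, and SI_Con gave 180.5, 141, 189 and 191. SI_EE (125, 158, 157 and 152) and SI_WT (174, 179, 166 and 116) spanned the GH_Con range, each through 1 low library, SI_EE 1 and SI_WT 4.

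Clock (chromosome 5, 76209868 to 76304792, minus strand), the only activator of the loop in the set, read 149.9, 114, 124 and 146 CPM in GH_EE and 79.5, 90.0, 109 and 107 in SI_EE. These groups did not overlap. GH_Con (119, 75.8, 97.7 and 114), SI_Con (125, 64.4, 72.3 and 129.5), GH_WT (119, 98.0, 101 and 90.7) and SI_WT (114, 96.7, 139 and 81.1) overlapped one another. The 3 lowest Clock libraries, SI_Con 2, SI_Con 3 and GH_Con 2, are among the 4 in which longer genes read lower, and over all 24 libraries Clock followed that length measure with r = 0.78 (rho = 0.64, two-sided permutation p = 1e-05, the smallest that 100000 resamples can give, adjusted p = 0.000900 over 90 relations). Without the 2 libraries farthest on that measure r was 0.71, within the Xist libraries 0.86 and within the Y-linked libraries 0.72. The measure was computed over the tested genes with Clock among them, and Clock, with 13727 merged exon bases, is itself long. A long gene is likely to follow such a measure, so this p is not read as a result about Clock.

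The REV-ERB genes encode repressors of Arntl. Nr1d1 (chromosome 11, 98767932 to 98775333, minus strand) read 125, 90.8, 113 and 72.7 CPM in GH_Con, 133, 131, 85.0 and 125 in SI_Con, and 93.7, 145, 141 and 106 in GH_EE. It read 109, 104, 106 and 119 in SI_EE, 102, 102, 129 and 145 in GH_WT, and 113, 77.5, 109 and 113 in SI_WT. No pair of groups was set apart: each spread within a group reached into the others. Nr1d2 (chromosome 14, 18204054 to 18239127, minus strand) had its lowest group mean in GH_Con, 149 ± 13.1 CPM (SD, n = 4), where the 4 libraries ran from 134 to 166, against 183 ± 11.8 in GH_EE, where they ran from 175 to 200.2. Its other group means lay between 169.6 ± 20.4 in SI_WT and 184 ± 23.7 in SI_EE, and 172 ± 5.92 in SI_EE without SI_EE 1 (n = 3).

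Dbp, the PAR bZIP output activator (chromosome 7, 45705088 to 45710203, plus strand), read 84.8, 76.3, 77.6 and 58.9 CPM in GH_Con, 73.1, 98.1, 64.5 and 75.9 in SI_Con, and 51.2, 75.6, 82.5 and 68.1 in GH_EE. It read 68.1, 71.1, 63.6 and 63.5 in SI_EE, 48.8, 51.7, 78.5 and 103 in GH_WT, and 80.6, 45.7, 66.1 and 112 in SI_WT. Its group means, 66.6 to 77.9 CPM, were closer together than the libraries within either group of the WT arm. Bhlhe40, the E-box repressor (chromosome 6, 108660629 to 108666925, plus strand), read 116, 123, 106 and 90.1 CPM in GH_Con. It read 155, 113, 152 and 219 in SI_Con, 170.2, 183, 144 and 168 in GH_EE, and 179, 140.2, 176 and 158 in GH_WT. SI_EE gave 91.8, 164, 169.6 and 157 and SI_WT 146, 172, 141 and 118, so both GH arms other than GH_Con stood clear above GH_Con, and each isolated group reached down to it.

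**Figure D1:**
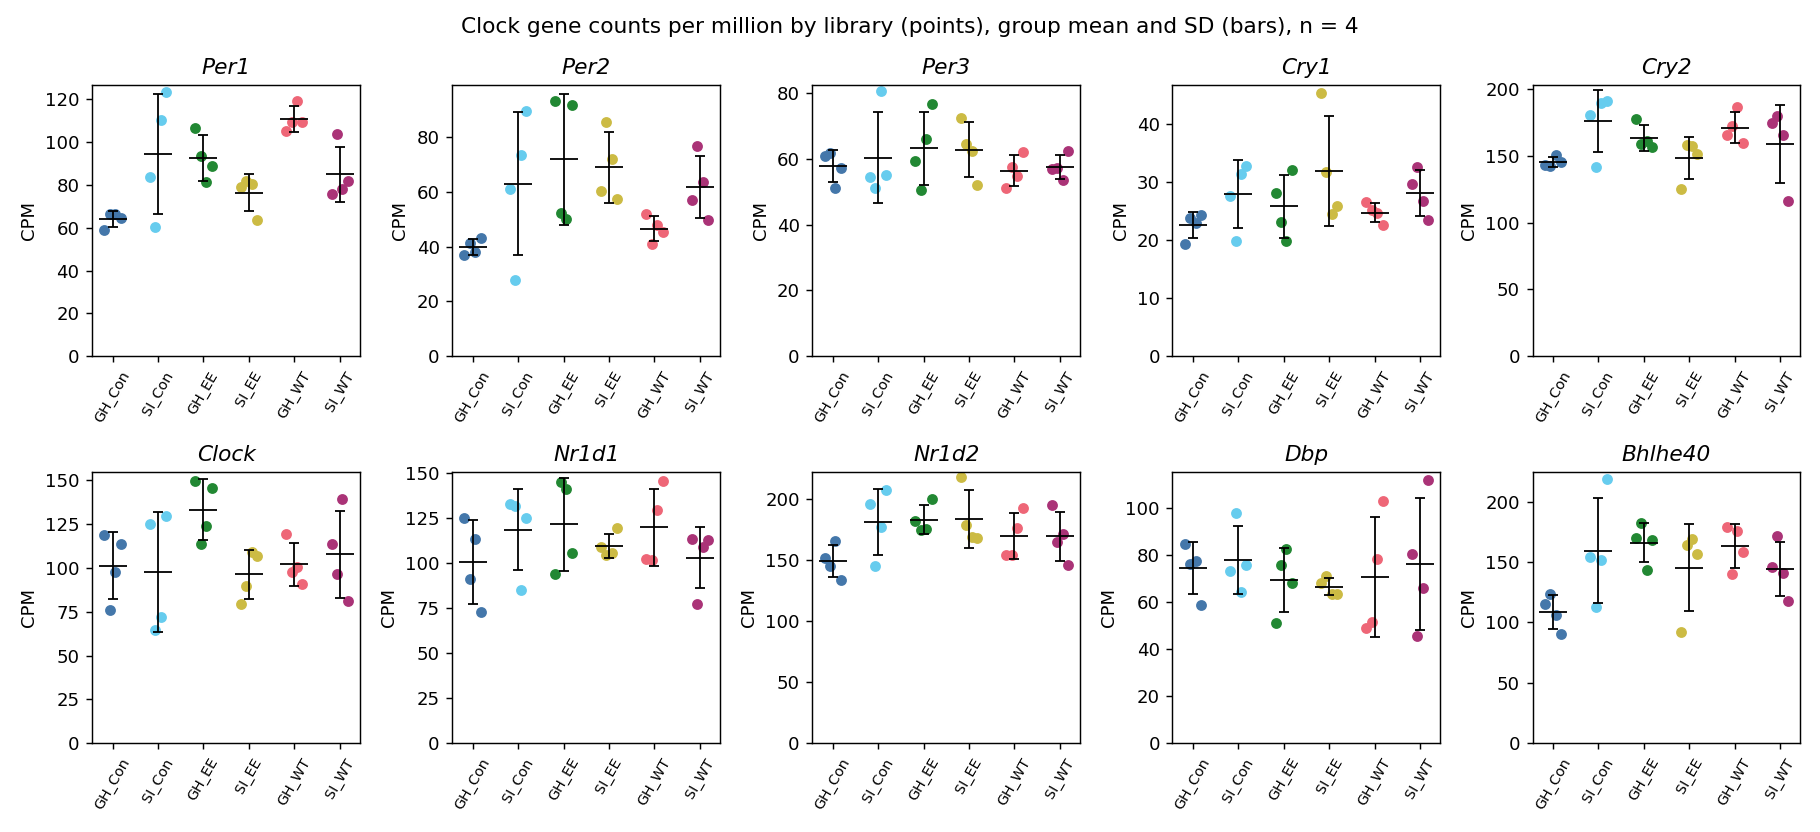
Expression of the 10 clock genes in CPM (vertical axes, each from 0) in the 6 groups of 4 libraries. Points are libraries, and bars give the group mean and SD (n = 4). Per1 lies between 58.7 and 66.3 CPM in GH_Con and between 105 and 119 in GH_WT, while Dbp overlaps across all groups.

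The comparison of isolated with GH mice without treatment asks what housing does to the clock genes. Per1, Per2, Bhlhe40, Nr1d2 and Cry2 read higher in SI_Con at an unadjusted p under 0.05, but no member passed adjustment in edgeR's quasi-likelihood test, and the groups overlapped for every member. Per1 was 1.48-fold higher in SI_Con (94.4 ± 28.1 against 63.9 ± 3.60 CPM, SD, n = 4; log2 fold change 0.56, SE 0.16; edgeR adjusted p = 0.506). The log2 fold changes of the others were 0.66 for Per2 (SE 0.25), 0.55 for Bhlhe40 (SE 0.18), 0.28 for Nr1d2 (SE 0.12) and 0.27 for Cry2 (SE 0.12), with edgeR adjusted p of 0.553 to 0.702. Of the 10 members, 5 were higher at that unadjusted level, beside 2.97% of all genes, and 9 had a positive fold change, beside 50.1% of all genes. No member's groups were apart, beside 1.96% of all genes with 4 higher libraries each above the 4 others, and 0% of genes passed adjustment. Without SI_Con 2 the count at p under 0.05 became 6 and Per1 reached a log2 fold change of 0.73 (edgeR adjusted p = 0.119), and without SI_Con 4 the count was 2, Per1 (log2 fold change 0.41) and Bhlhe40 (0.37). SI_Con 4 had the highest Per1, Per2, Cry2 and Bhlhe40 of its group and the highest choroid plexus marker mean of all libraries, 3.76 log2 CPM. Astrocyte and oligodendrocyte markers were lower in SI_Con without overlap: the astrocyte list (7 of 7 tested) averaged 7.73 to 8.10 log2 CPM against 8.18 to 8.62 in GH_Con, and the oligodendrocyte list (7 of 7) 8.15 to 8.44 against 8.59 to 8.96. The microglia list (6 of 6) overlapped, at 4.50 to 5.23 against 4.96 to 5.69. The part of these markers in the members' values was not tested.

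For the enriched environment in GH mice, set against the same GH_Con libraries, Per2, Bhlhe40, Per1 and Nr1d2 read higher at an unadjusted p under 0.05, and none passed adjustment. Per2 was 1.80-fold higher in GH_EE (71.8 ± 23.8 against 39.8 ± 2.87 CPM, SD, n = 4; log2 fold change 0.85, SE 0.25; edgeR adjusted p = 0.537). Bhlhe40 followed at a log2 fold change of 0.61 (SE 0.18, edgeR adjusted p = 0.537), Per1 at 0.53 (SE 0.16, adjusted p = 0.537) and Nr1d2 at 0.30 (SE 0.12, adjusted p = 0.709). These 4 of 10 stand beside 2.62% of all genes higher at an unadjusted p under 0.05, and 9 positive fold changes beside 46.4%. The GH_EE libraries lay wholly above GH_Con for 5 members, Per1, Per2, Cry2, Nr1d2 and Bhlhe40, beside 4.50% of all genes. Over all genes 0.00491% passed adjustment, none of them a member. GH_EE 1 and GH_EE 4 carried the higher Per2 values, 93.2 and 91.5 CPM against 52.4 and 50.02 in the other 2 libraries. This split coincides with the sex-chromosome transcripts: GH_EE 1 and GH_EE 4 read Y-linked genes, and the other 2 read Xist. GH_Con had 3 Xist libraries and 1 Y-linked library, and a fit with that class as a covariate is given below.

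Among the comparisons of title groups, the smallest p of any member was that of Per1 in the WT arm of GH mice. It averaged 111 ± 5.98 CPM in GH_WT against 63.9 ± 3.60 in GH_Con (SD, n = 4), 1.73-fold higher (log2 fold change 0.79, SE 0.16; edgeR adjusted p = 1). With DESeq2 the adjusted p of Per1 was 0.0102, and with edgeR on these 8 libraries alone it was 0.00562, both under the threshold, while limma-voom gave 1. Bhlhe40 was higher by 0.59 on the log2 scale (SE 0.18, edgeR adjusted p = 1). These 2 of 10 stand beside 1.78% of all genes, and 8 positive fold changes beside 48.6%. Per1, Cry2 and Bhlhe40 had all 4 GH_WT libraries above GH_Con, beside 2.20% of all genes, and 0% of genes passed adjustment. Without GH_WT 1, GH_WT 2 or GH_WT 4, the libraries with unusual striatal, thalamic or choroid plexus markers, the log2 fold change of Per1 was 0.81, 0.80 and 0.80, and that of Bhlhe40 0.54, 0.65 and 0.60. Per2, at 46.5 ± 4.55 CPM in GH_WT, had a log2 fold change of 0.22, with overlapping groups.

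These 3 comparisons share the GH_Con libraries, 3 of which read Xist, so the values above are given side by side and their likeness is not counted as a result. With the Xist or Y-linked class of each library as a covariate, edgeR gave Per1 a log2 fold change of 0.48 in SI_Con (adjusted p = 0.578), 0.47 in GH_EE (adjusted p = 0.623) and 0.74 in GH_WT (adjusted p = 0.679), and Per2 0.49 in SI_Con and 0.68 in GH_EE. No member passed adjustment in that fit either.

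**Figure D2:**
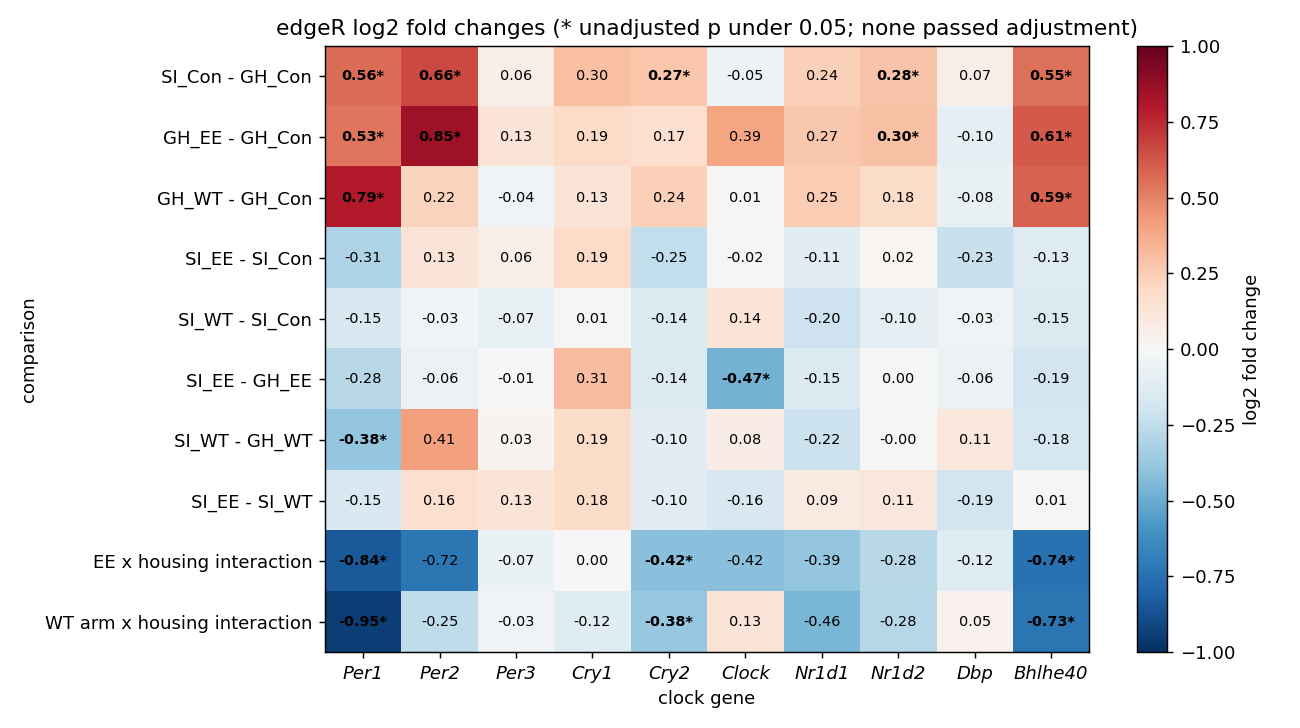
Log2 fold changes from edgeR (colour and printed values, log2 scale) of the 10 clock genes (columns) in 10 comparisons (rows), with a star at an unadjusted p under 0.05. The highest value against GH_Con is 0.85 for Per2 in GH_EE, and the lowest of all is -0.95 for Per1 in the WT arm by housing interaction.

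Among isolated mice, no member reached an unadjusted p under 0.05 for EE against SI_Con, for the WT arm against SI_Con, or for EE against the WT arm, where 12.6%, 3.84% and 10.2% of all genes did. None of the 10 members and 0% of all genes passed adjustment in edgeR in each of these 3 comparisons (91 genes, none a member, for EE without SI_EE 2), and with DESeq2 and limma-voom no member passed either. Fold changes of the members ran from -0.31 (Per1) to 0.19 (Cry1) on the log2 scale for EE, from -0.20 (Nr1d1) to 0.14 (Clock) for the WT arm, and from -0.19 (Dbp) to 0.18 (Cry1) between the treatments. Other settings gave some members an unadjusted p under 0.05, with lower values in SI_EE than in SI_Con. These were Per1 and Cry2 with the sex-chromosome class as a covariate (log2 fold changes -0.35 and -0.26) and without SI_Con 2 (-0.47 and -0.34), and Per1, Cry2 and Clock without the 4 libraries with lower long genes (-0.45, -0.33 and -0.41). Per1 alone was at that level without SI_Con 1 (-0.36), and Cry2 alone without SI_EE 2 (-0.28) or SI_EE 3 (-0.28). For the WT arm it was Per1 without SI_Con 2 (-0.32), and between EE and the WT arm Cry2 without SI_WT 4 (-0.23) or without those 4 libraries (-0.23). None passed adjustment.

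Within a treatment, isolated and GH mice differed at an unadjusted p under 0.05 in 1 member each. Clock was lower in SI_EE than in GH_EE (96.3 ± 14.03 against 133 ± 17.3 CPM, SD, n = 4; log2 fold change -0.47, SE 0.21; edgeR adjusted p = 0.553), the only member of 10 at that level, beside 2.34% of all genes, and the only member with all 4 libraries lower, beside 2.01%. Over all genes 0.00491% passed adjustment. Without SI_EE 1, the library with cerebellar transcripts, Clock averaged 102 ± 10.4 CPM (n = 3), its log2 fold change was -0.39 (edgeR adjusted p = 1), and its unadjusted p was no longer under 0.05. The same held without GH_EE 1 (-0.41), GH_EE 4 (-0.43) and SI_EE 2 (-0.44). The length measure, which Clock followed over the libraries, was -0.10, -0.04, 0.19 and 0.19 in SI_EE 1 to SI_EE 4. In GH_EE 1 to GH_EE 4 it was 0.20, 0.02, 0.13 and 0.11. The lowest Clock libraries of SI_EE, SI_EE 1 and SI_EE 2, were also lowest on that measure, and its part was not tested. Per1 was lower in SI_WT than in GH_WT (84.8 ± 12.8 against 111 ± 5.98 CPM; log2 fold change -0.38, SE 0.16; edgeR adjusted p = 0.846), again the only member of 10, beside 3.61% of all genes, and the only one with all 4 libraries lower, beside 2.24%. No gene, 0%, passed adjustment there. Without GH_WT 3, SI_WT 1 or SI_WT 3 the log2 fold change of Per1 was -0.34, -0.33 and -0.34, and its unadjusted p was above 0.05.

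The interactions ask whether a treatment's difference from untreated mice depends on housing. For EE it was lower in isolation than in GH for Per1 by 0.84 on the log2 scale (SE 0.22, edgeR adjusted p = 0.511), for Bhlhe40 by 0.74 (adjusted p = 0.533) and for Cry2 by 0.42 (adjusted p = 0.565). For the WT arm it was lower for Per1 by 0.95 (SE 0.22, edgeR adjusted p = 1), for Bhlhe40 by 0.73 (adjusted p = 1) and for Cry2 by 0.38 (adjusted p = 1). Those 3 of 10 members stand beside 2.58% and 2.66% of all genes, and 0% of genes passed adjustment in either interaction. Only 1 member had a positive value for EE and 2 for the WT arm, beside 51.6% and 49.6% of all genes. Both interactions contain GH_Con and SI_Con, so they are not separate evidence. Without SI_EE 1 the EE interaction was -0.85 for Per1, -0.57 for Bhlhe40 and -0.34 for Cry2, whose unadjusted p was then above 0.05. The number of members at that level in the EE interaction was 3 to 6 when each library was left out in turn, 6 without SI_Con 2 (Per1, Per2, Cry2, Clock, Nr1d2 and Bhlhe40) and also without the 4 libraries in which longer genes read lower, and 5 with the sex-chromosome class as a covariate. In the WT arm interaction it was 2 to 4. Over the 6 groups together, Per1 (edgeR F test, adjusted p = 0.297), Per2 (adjusted p = 0.517) and Bhlhe40 (adjusted p = 0.579) had an unadjusted p under 0.05, as did 8.23% of all genes, and 0.0491% of genes, none a member, passed adjustment. DESeq2's likelihood ratio test called Per1 over the 6 groups (adjusted p = 0.0188). Without GH_Con 1, Per1 was the 1 member with an unadjusted p under 0.05 in edgeR's test over the groups, and without the 4 libraries with lower long genes 5 members were.

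A list of 33 other clock genes (BMAL1 and its paralogues, ROR receptors, PAR bZIP factors, kinases and ubiquitin ligases of the loop) was tested whole, and 0 of 33 passed adjustment in any comparison. Between 0 and 6 of the 33 had an unadjusted p under 0.05, the most for isolation within EE, with 4 higher and 2 lower. The median log2 fold change of the list was 0.04 for isolation, 0.07 for EE in GH and 0.04 for the WT arm in GH, against 0.00, -0.02 and -0.01 over all genes, while the 10 members had medians of 0.28, 0.28 and 0.20. Sik1, Rbm3 and Nfil3 were among the 4 genes of the list with the smallest p over the 6 groups. Sik1, a kinase that restrains the clock's response to light, averaged 11.4 ± 2.50 CPM in GH_Con and 20.4 ± 2.44 in GH_EE (SD, n = 4; log2 fold change 0.83, edgeR adjusted p = 0.537). Rbm3, a cold-inducible RNA-binding protein, averaged 57.7 ± 12.9 CPM in GH_Con and 39.1 ± 5.86 in GH_EE (log2 fold change -0.56, edgeR adjusted p = 0.718). Nfil3, which competes with DBP for D-boxes, was highest in SI_EE 1 at 16.6 CPM. Arntl averaged 29.5 ± 4.85 CPM in GH_Con and 37.2 ± 4.98 in GH_EE (log2 fold change 0.33, edgeR adjusted p = 0.720).

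Immediate early genes mark recent neuronal activity, and their list mean correlated with 4 of the 10 members after adjustment, while that of glucocorticoid targets did with 3. The share of all genes that follow either list as closely was not computed. The part of either list in the members' differences was not tested. Of 28 immediate early genes, 23, 23 and 21 had positive fold changes for isolation, EE and the WT arm against GH_Con, with medians of 0.23, 0.41 and 0.26, and 0 passed adjustment. Over all genes 50.1%, 46.4% and 48.6% had positive fold changes in these comparisons, with medians of 0.00, -0.02 and -0.01. Fos averaged 16.6 ± 8.06 CPM in GH_Con, 23.2 ± 7.72 in SI_Con, 32.1 ± 7.74 in GH_EE and 39.3 ± 11.8 in GH_WT (SD, n = 4). Arc stood at 129 ± 35.8, 204 ± 100.1, 297 ± 78.9 and 342 ± 106 CPM in the same groups, Nr4a1 at 66.4 ± 17.1, 92.0 ± 26.8, 121 ± 23.8 and 123 ± 30.3, and Egr1 at 261 ± 53.0, 336 ± 65.9, 384 ± 48.0 and 414 ± 114. In SI_EE and SI_WT, Fos averaged 29.1 ± 4.39 and 26.7 ± 10.04 CPM, and Arc 226 ± 125 and 316 ± 135. Nr4a1 averaged 85.8 ± 23.8 and 117 ± 37.9 there, and Egr1 367 ± 169 and 427 ± 69.3. The SI_EE values, and the comparison of EE with SI_Con, include SI_EE 1, the library with cerebellar transcripts. SI_EE 1 read 85.0 CPM for Arc, 58.7 for Nr4a1 and 129 for Egr1, each the lowest of SI_EE. For Fos it read 29.5 CPM, within the range of the other SI_EE libraries. The part of SI_EE 1 in these means and fold changes was not tested. Against SI_Con, 17 and 20 of the 28 genes had positive fold changes for EE and the WT arm, with medians of 0.07 and 0.16. Over all genes these medians were 0.006 and -0.004. Of 20 glucocorticoid targets, 19, 16 and 17 had positive fold changes against GH_Con with medians of 0.49, 0.22 and 0.22, beside the same shares and medians over all genes, and 0 passed adjustment. Sgk1 averaged 90.6 ± 24.2 CPM in GH_Con, 148 ± 72.2 in SI_Con, 110.4 ± 24.4 in GH_EE and 158 ± 14.4 in GH_WT. In the same order Fkbp5 averaged 31.8 ± 4.82, 57.3 ± 39.0, 38.9 ± 17.9 and 32.8 ± 5.25, and Tsc22d3 67.4 ± 5.6, 81.6 ± 10.1, 84.3 ± 13.3 and 81.3 ± 34.3. In SI_EE and SI_WT, Sgk1 averaged 81.8 ± 18.8 and 87.7 ± 15.7 CPM, Fkbp5 36.3 ± 14.7 and 33.0 ± 5.70, and Tsc22d3 84.3 ± 20.7 and 85.9 ± 15.0. Against SI_Con, only 3 and 2 of the 20 targets had positive fold changes for EE and the WT arm, with medians of -0.25 and -0.52, beside 0.006 and -0.004 over all genes. The glucocorticoid list was highest in SI_Con 3, at 6.05 log2 CPM against at most 5.34 elsewhere. SI_Con 3 enters the isolation comparison and both comparisons against SI_Con. Comparisons that share GH_Con or SI_Con libraries are not separate results for either list.

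Members that peak from day to dusk in most tissues (Per1, Per2, Per3, Nr1d1, Nr1d2, Dbp and Bhlhe40) were set against those that peak from night to dawn (Cry1 and Clock), as the difference of their mean log2 CPM in each library. Cry2 was left out because its rhythm is weak in many tissues. The rhythm of Clock, or of any other member, could not be measured here, so the arms are an assignment from outside these data. The difference was 0.71 ± 0.21 in GH_Con, 0.93 ± 0.20 in SI_Con, 0.78 ± 0.19 in GH_EE, 0.77 ± 0.14 in SI_EE, 0.90 ± 0.26 in GH_WT and 0.75 ± 0.23 in SI_WT (log2 scale, SD, n = 4). The lowest library was GH_Con 4 at 0.41 and the highest GH_WT 4 at 1.21, and every group's range overlapped every other. Without Per1 and Bhlhe40 in the day-to-dusk arm it was 0.67 in GH_Con, 0.81 in SI_Con and 0.66 in GH_EE. In the same setting it was 0.71 in SI_EE, 0.69 in GH_WT and 0.64 in SI_WT. No test was made of this score. Clock, in the second arm with Cry1, followed the length measure over the libraries (r = 0.78), and the part of length in the score was not tested. In SI_Con, SI_Con 2 and SI_Con 3, with low Clock and lower long genes, gave the highest differences, 1.13 and 1.06, and without those 2 libraries the group averaged 0.77 ± 0.06 (n = 2). The day-to-dusk mean itself was lowest in GH_Con, 6.28 log2 CPM, and between 6.51 and 6.64 in the other groups.

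Over the 24 libraries, 8 of the 45 pairs of members correlated with an adjusted p under 0.05 (Pearson's r of log2 CPM, two-sided permutation test with 100000 resamples, Benjamini-Hochberg over 45 pairs), and all 8 were positive. The share of all gene pairs that correlate this far was not computed, so the count is not read as particular to these genes. Among 13617 genes ranked by r, Cry2 was in place 59 for Bhlhe40 and Per2 in place 66 for Cry1. Bhlhe40 correlated with Cry2 (r = 0.72, rho = 0.64, adjusted permutation p = 0.003), Per1 (r = 0.70, rho = 0.69, adjusted p = 0.003) and Per2 (r = 0.60, rho = 0.59, adjusted p = 0.0109). Cry1 correlated with Per2 (r = 0.70, rho = 0.81, adjusted permutation p = 0.003) and Nr1d2 (r = 0.64, rho = 0.61, adjusted p = 0.00465). Per1 and Cry2 gave r = 0.65 (rho = 0.74, adjusted permutation p = 0.00465), Per2 and Nr1d2 r = 0.61 (rho = 0.66, adjusted p = 0.0109), and Nr1d1 and Dbp r = 0.65 (rho = 0.71, adjusted p = 0.00465). Without the 2 libraries farthest on the measure of the gene listed before the other in the set's order, r of these 8 pairs lay between 0.51 and 0.69.

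Which pairs passed depended on the libraries and on the group means. With group means removed, 11 pairs passed, 5 of them among the 8: Nr1d1 with Dbp was the strongest of those 5 (r = 0.78, adjusted permutation p = 0.000450), Per1 with Per2 joined at r = 0.81 (adjusted p = 0.0261), and 3 pairs were negative, Per2 with Dbp (-0.51), Cry1 with Dbp (-0.48) and Cry1 with Nr1d1 (-0.53). Within the 12 Xist libraries 1 pair passed, not among the 8, and within the 12 Y-linked libraries 2 passed. Nr1d1 with Dbp gave r = 0.15 within the Xist libraries and 0.55 within the Y-linked libraries, so the pooled value was not held within the former. The other 7 of the 8 pairs were positive in both sets, with r of 0.48 to 0.73 in the Xist libraries and 0.39 to 0.80 in the Y-linked libraries: Bhlhe40 with Cry2 gave 0.68 and 0.76, and Bhlhe40 with Per1 0.73 and 0.71. The 3 pairs that were negative with group means removed changed sign between the Xist and Y-linked libraries. Per2 with Dbp gave -0.41 against 0.36, Cry1 with Dbp -0.41 against 0.37, and Cry1 with Nr1d1 -0.29 against 0.25. Without SI_EE 1, 19 pairs passed, 17 positive, among them the original 8.

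**Figure D3:**
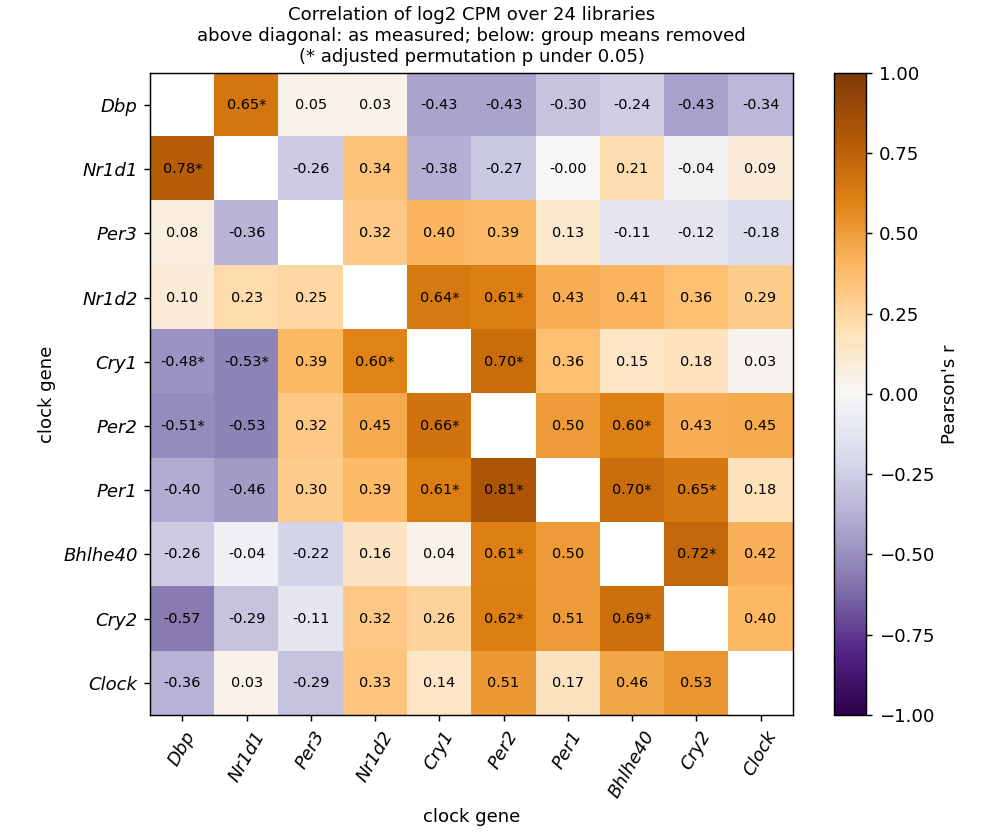
Pearson's r of log2 CPM between the 10 clock genes over 24 libraries (colour and printed values), above the diagonal as measured and under it with group means removed, with a star at an adjusted permutation p under 0.05. Bhlhe40 with Cry2 reads 0.72 as measured, and Nr1d1 with Dbp 0.65 as measured and 0.78 with group means removed.

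The members were also correlated with 6 other clock genes, the 2 gene lists and the length measure, 90 relations in all, of which 17 had an adjusted permutation p under 0.05. How many of all genes follow these measures as closely was not computed, so that count is not read as particular to the members. Of the 17, 1 is Clock with the length measure, which was computed with Clock among its genes. Per1 (r = 0.68, rho = 0.67, adjusted permutation p = 0.00720), Bhlhe40 (r = 0.71, rho = 0.70, adjusted p = 0.00495), Per2 (r = 0.56, rho = 0.56, adjusted p = 0.0335) and Cry2 (r = 0.54, rho = 0.60, adjusted p = 0.0396) followed the mean of the immediate early list. Without GH_Con 1 and SI_EE 1, farthest on that list, r was 0.66 for Per1, 0.62 for Bhlhe40, 0.61 for Per2 and 0.40 for Cry2, and within Xist and Y-linked libraries it was 0.61 and 0.61 for Per1, 0.61 and 0.82 for Bhlhe40, 0.50 and 0.26 for Per2, and 0.13 and 0.84 for Cry2. With the glucocorticoid list, r was 0.54 for Per1 (rho = 0.57, adjusted permutation p = 0.0359), 0.53 for Per2 (rho = 0.53, adjusted p = 0.0396) and 0.65 for Per3 (rho = 0.50, adjusted p = 0.0153). The Per3 relation was 0.31 without SI_Con 3 and GH_EE 4 and rests on those libraries, while Per1 gave 0.56 and Per2 0.49 without them. Within Xist and Y-linked libraries the glucocorticoid relation was 0.57 and 0.37 for Per1, 0.07 and 0.35 for Per2, and 0.30 and 0.70 for Per3. Dbp had a negative r with the immediate early list (r = -0.51, adjusted permutation p = 0.0553; rho = -0.54, adjusted permutation p = 0.0425), which was 0.01 within the Xist and -0.43 within the Y-linked libraries. Nr1d1 had r of -0.34 with the immediate early and -0.41 with the glucocorticoid list, and neither passed adjustment. Cry1 passed with the glucocorticoid list by rho only (r = 0.47, adjusted permutation p = 0.102; rho = 0.55, adjusted permutation p = 0.0411).

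**Figure D4:**
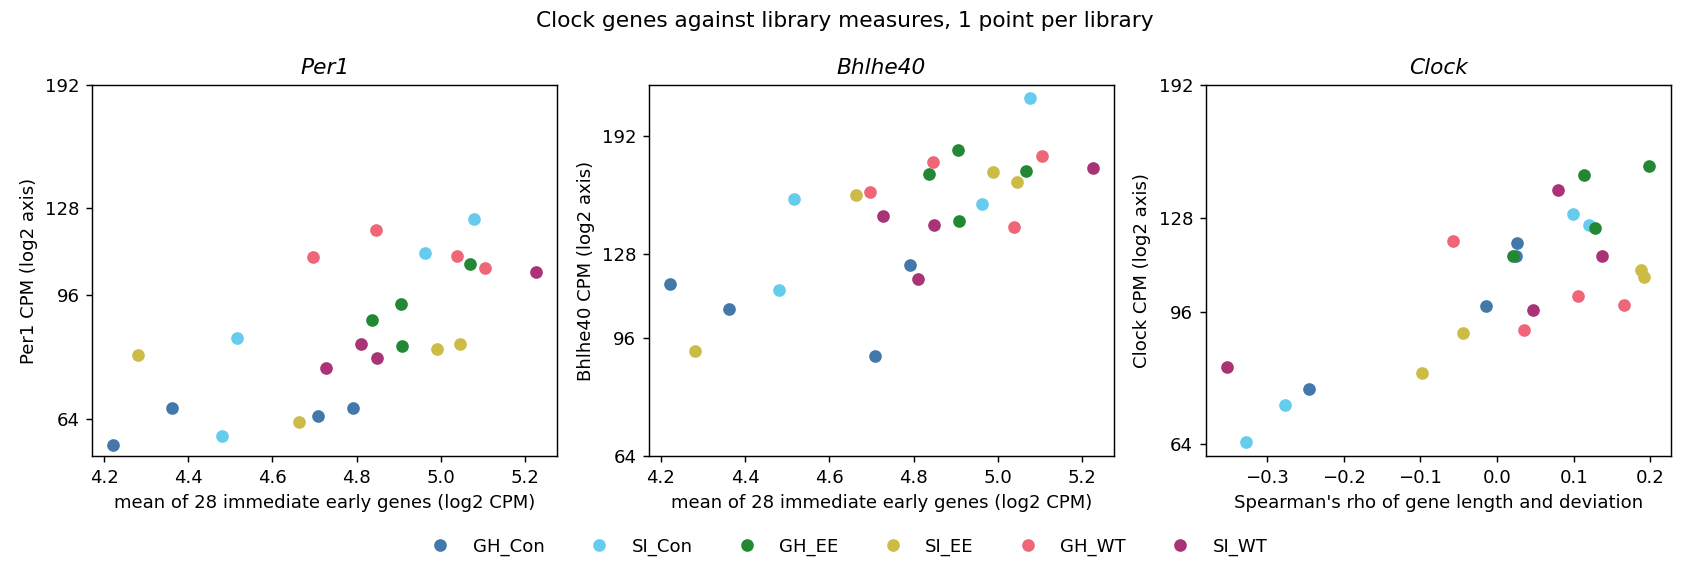
Per1 and Bhlhe40 against the mean level of 28 immediate early genes (log2 CPM), and Clock against the length measure (rank correlation between gene length and a library's deviation). Points are the 24 libraries, coloured by group, and vertical axes are CPM on a log2 axis. Pearson's r is 0.68, 0.71 and 0.78.

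Arntl, the gene of CLOCK's partner, correlated with Per2 (r = 0.62, rho = 0.61, adjusted permutation p = 0.0153), Bhlhe40 (r = 0.57, rho = 0.59, adjusted p = 0.0321) and Cry2 (r = 0.54, rho = 0.49, adjusted p = 0.0383), with r of 0.52, 0.50 and 0.56 without the farthest libraries, GH_Con 3 and GH_EE 1. Within Xist and Y-linked libraries these were 0.23 and 0.71 for Per2, 0.59 and 0.56 for Bhlhe40, and 0.44 and 0.56 for Cry2. Dbp followed Ciart, another E-box target and repressor of the loop (r = 0.59, rho = 0.65, adjusted permutation p = 0.0244; 0.64 without SI_WT 3 and GH_WT 4; 0.77 and 0.37 within Xist and Y-linked libraries). The relations of Cry1 with Nfil3, of Cry2 and Bhlhe40 with Hlf, of Bhlhe40 with Npas2 and of Clock with Tef passed adjustment (r of 0.50 to 0.64, rho of 0.37 to 0.49, adjusted permutation p of 0.0153 to 0.0497) and had an r of 0.36 to 0.38 without the 2 farthest libraries, which included SI_EE 1 in all of them but Tef.

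Of 13617 genes with a symbol and a mean of at least 1 CPM, those closest to each member over the 24 libraries were named by Pearson's r, as a description. Per1 was closest to Sik1 (0.82), Dusp1 (0.80), an immediate early phosphatase, and Trib2 (0.79). Per2 was closest to Ints8 (0.90), Zbtb40 (0.86) and Rngtt (0.86), Cry1 to Ppm1b (0.87), Trabd2b (0.82) and Prpf4b (0.82), and Clock to Prkci (0.83), Rybp (0.83) and Itsn1 (0.83). Cry2 and Bhlhe40 shared Arhgef3 (0.89 and 0.81), beside Spire1 (0.89) and Heca (0.85) for Cry2 and Fbxo28 (0.86) and Tent4a (0.82) for Bhlhe40. Per3 was closest to Itpk1 (0.80), Ankrd10 (0.79) and Mdm4 (0.79), and Nr1d2 to Dixdc1 (0.85), Map3k4 (0.80) and Kitl (0.80). Nr1d1 was closest to Srp54c (0.76), Gbp9 (0.68) and Fmnl3 (0.68), with Dbp in place 5. Dbp was closest to C1qtnf12 (0.76), Xist (0.72) and Vstm2l (0.68), with Nr1d1 in place 7. For the other 8 members no member stood closer than place 18, the place of Bhlhe40 for Per1.

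Because Xist came up beside Dbp, the members were compared between the 12 Xist and 12 Y-linked libraries, a division read from the data and not given by the labels, with the 6 groups in the edgeR model. Nr1d1 ran from 90.8 to 145 CPM (median 127) in the Xist libraries and from 72.7 to 125 (median 103) in the Y-linked libraries. Its mean was higher in the Xist libraries in 6 of 6 groups (log2 difference 0.39, SE 0.08). In GH_Con the Y-linked side is only 1 library, and in SI_EE the Xist side is only 1. Dbp ran from 63.5 to 112 CPM (median 79.6) and from 45.7 to 75.9 (median 64.02), higher in 5 of 6 groups (log2 difference 0.48, SE 0.10). The division was made because Xist lay close to Dbp, so the value of Dbp restates that relation and has no test. Nr1d1, Per2, Cry1 and Per1 had an r with Dbp of 0.65, -0.43, -0.43 and -0.30, so their values are given without a p-value too. Per2 went the other way, with a median of 48.8 against 72.7 CPM (log2 difference -0.45, SE 0.12). So did Cry1, 23.3 against 29.8 CPM and lower in every group (log2 difference -0.29, SE 0.09), and Per1 (log2 difference -0.23). No member passed adjustment, as 0.0590% of all genes did, and 6.23% of all genes had an unadjusted p under 0.05, against which the members are not counted since 1 of them led to the division. Nr1d2 differed by 0.00 on the log2 scale (SE 0.07). Of the other genes of the loop, Ciart read higher in the Xist libraries (log2 difference 0.36) and Arntl (-0.18) and Nfil3 (-0.30) lower, each at an unadjusted p under 0.05, with edgeR adjusted p of 0.407 to 0.717. Fos, Arc and Nr4a1 were lower in the Xist libraries by 0.51, 0.63 and 0.41 on the log2 scale (edgeR adjusted p = 0.407 to 0.423). The p-values of these other genes do not allow for how the division was chosen. What else differed between these 2 sets of libraries is not in the labels, and its part was not tested.

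**Figure D5:**
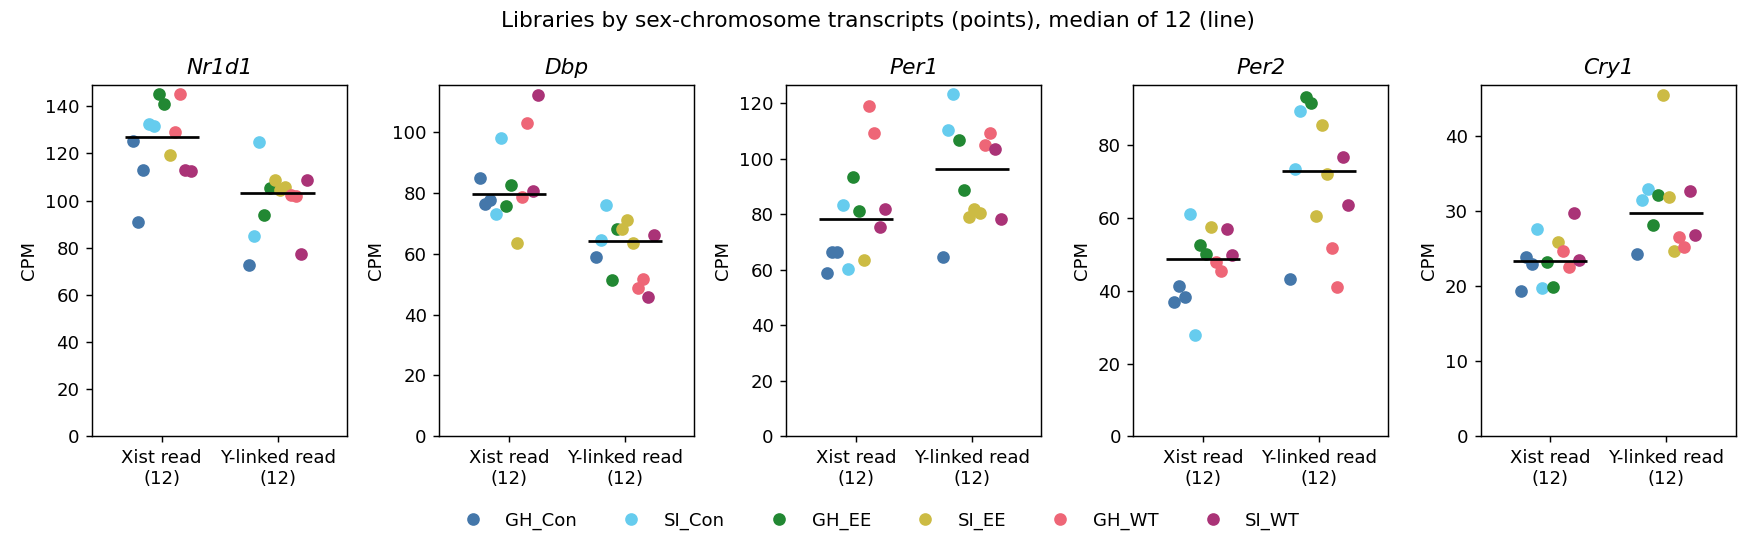
CPM (vertical axes, from 0) of 5 clock genes in the 12 libraries that read Xist and the 12 that read Y-linked genes, coloured by title group, with the median as a line. Nr1d1 and Dbp have the higher median in the Xist libraries (127 and 79.6 CPM), and Per1, Per2 and Cry1 in the Y-linked libraries.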

How the data were processed

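Whole-number read counts per gene were used as the authors deposited them, and their whole values and differing totals show no normalisation. The build is mm10, per the submitters' processing notes. For the aligner, counter, annotation and strand setting, the entry is: not given in the sources used here. Of 56750 entries, 52073 (91.8%) were paired with a symbol, and entries without one held 0.695% of reads. Library totals of 33683587 to 51274917 counts leave each member at least 698 reads in every library. Counts were tested with edgeR 4.0.16 in R 4.3.3 (quasi-likelihood, TMM, filterByExpr, robust dispersion, all 24 libraries in 1 fit, no covariate) and Benjamini-Hochberg adjustment over 20354 genes at 0.05. CPM were computed on totals scaled by TMM, with a prior count of 2 for log2 CPM. DESeq2 1.42.0, limma-voom (limma 3.58.1) and the other alternatives are given in the closing section. The steps were tested on simulated data. Each ± is an SD over libraries.

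Positions and exon lengths came from GENCODE M21 (GRCm38) and promoters from RefSeq. The members, the gene lists and the marker lists were chosen with earlier results of these data known. Named genes are the 10 members, the 4 genes of the other clock list with the smallest p over the 6 groups (1 of them is not reported here), 8 genes of the immediate early and glucocorticoid lists, and the 3 genes closest to each member. Arntl, Ciart, Npas2, Hlf and Tef were taken for their place in the loop. Marker lists covered 10 tissues and cell types. The comparison of Xist with Y-linked libraries was added after values were seen. Replicate numbers did not pair the libraries: deviations of same-numbered libraries correlated at -0.28 to 0.18 (median -0.01 over 60 pairs, 4 of them over 0.1).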

Additional observations from a re-analysis of the deposited data

Results flagged for a closer look

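In 5 of the 60 combinations of a member and a group of 4 libraries, 1 library stood so far from the other 3 that its gap, divided by the group's range, passed Dixon's 95% critical value for 4 samples. Chance gives about 1 such library in 20 groups. In SI_Con, SI_Con 3 had the highest Per3, 80.7 CPM against 51.0 to 55.1 in the others, and the lowest Nr1d1, 85.0 CPM against 125 to 133. In SI_EE, SI_EE 4 had the lowest Per1, 63.4 CPM against 78.9 to 81.8, and SI_EE 1 the lowest Bhlhe40, 91.8 CPM against 157 to 169.6. In SI_WT, SI_WT 2 had the lowest Nr1d1, 77.5 CPM against 109 to 113. SI_Con 3 was also the highest library on the glucocorticoid list (6.05 log2 CPM), and SI_EE 1 the one with cerebellar transcripts. The part of either in these values was not tested.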

How the results depend on the processing

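No member passed adjustment in edgeR in any of the 10 comparisons or over the 6 groups when a library was left out, without the low-count filter, with DESeq2 size factors, with the sex-chromosome class as a covariate, or without the 4 libraries in which longer genes read lower, nor with limma-voom. Exceptions came from 2 settings: the WT arm in GH called 1 member, Per1, with DESeq2 and 1, Per1, with only the groups compared, against 0, and the test over the 6 groups called 1 with DESeq2 against 0. The cause was not tested. Over all genes DESeq2 called 33 for isolation, 26 for EE in GH, 10 for the WT arm in GH, 174 for EE in SI, 2 for the WT arm in SI, 22 for isolation within EE, 12 for isolation within the WT arm, 86 for EE against the WT arm, 29 and 0 for the interactions and 215 over the groups, against 0, 1, 0, 0, 0, 1, 0, 0, 0, 0 and 10 with edgeR. When each library was left out in turn, the edgeR count over all genes ran from 0 to 91 for EE in SI (91 without SI_EE 2) and from 1 to 44 over the groups (44, 29 and 25 without SI_EE 2, SI_EE 3 and SI_EE 4, and at most 3 otherwise), and in the other comparisons from 0 to 3. Over the groups it was 1 without the low-count filter, with the replicate block and with the sex-chromosome class, 2 without the 4 libraries with lower long genes, and 0 with limma-voom. With a replicate block no member call changed (0 in each comparison), and the correlation of members gave 14 pairs in place of 8, 9 positive and 5 negative, with 5 of the 8 among them. That block shares numbers only, since 4 of 24 libraries correlated best with their own number. The count of correlated pairs ran from 8 to 19 when each library was left out in turn, 19 without SI_EE 1, and was 1 in the 12 Xist and 2 in the 12 Y-linked libraries, settings chosen after seeing the data that also have fewer libraries. All phase differences moved by less than their SD. The depth was not limiting for single members, whose lowest count was 698.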
